A study of Mus musculus with 4 samples.

Results

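Of 59918 cells of the mouse prefrontal cortex (PFC) that passed the cell filter, 572 were glutamatergic neurons that carried mRNA of both Ctgf and Nxph4, genes in use as marks of cortical layer 6b. The filter kept cells with 1000 or more unique molecular identifiers (UMIs, each 1 counted mRNA molecule) and 1000 or more detected genes, whose mitochondrial share was 15% or less. It was a member with at least 1 UMI of Neurod2 or Neurod6, transcription factors of glutamatergic neurons, under 1 UMI of Gad1 plus Gad2 (the enzymes that make GABA) per 10000, at least 1 UMI of Ctgf, at least 1 UMI of Nxph4, and at least 2 UMIs of these together per 10000. Members were thus chosen by the levels of these 6 genes, which are given as a description and support nothing. Each age was 1 library, namely P1, P4, P10 and adult (P84), taken from 2 mice per age of the strain c57bl/6 by the labels and C57BL/6J by the study's text, which the methods give as female and name with no treatment or engineered allele. Cells were not mapped to mice, so each age was 1 sample, no difference between ages or cell groups had a replicate check, and no test was made. Runs of 4 values go from the youngest library to the oldest.

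Layer 6b is the deepest sheet of the cortex, next to the white matter, and part of its neurons are held to be what remains of the subplate, a layer of early-born neurons that receives thalamic axons before the cortical plate does. Layer 6b neurons are known for their receptors to orexin and dopamine and for projections within the cortex and to higher-order thalamus. Ctgf (Ccn2) encodes a secreted matricellular protein, and Nxph4 encodes a neurexophilin, a secreted ligand of alpha-neurexins. In GRCm38 both genes lie on chromosome 10, Ctgf at 24595442 to 24598683 and Nxph4 at 127525473 to 127534559, and both are protein coding.

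Members numbered 136, 238, 163 and 35 in the P1, P4, P10 and adult libraries. The libraries held 200198548 to 340724049 UMIs in all. Members had a median of 45136, 27703.5, 30259 and 18661 UMIs per cell. As comparators, 5955 layer 6 corticothalamic (L6 CT) cells were taken by Foxp2 and Syt6, and 2178 layer 5 near-projecting (L5 NP) cells by Tshz2 and Lypd1, with the same glutamatergic conditions, the same 2 UMIs per 10000 and without cells that carried both Ctgf and Nxph4. Cells that met both pairs, 47, 53, 45 and 56 by library, counted in both comparators. L6 CT cells had a median of 24708, 10614, 19690 and 19284.5 UMIs and L5 NP cells of 30092, 13445, 20866.5 and 13362 UMIs, so members were deeper than both at P1, P4 and P10. A rule that asks for a UMI of each gene takes up deep cells more readily, and the part of depth in the results below was not tested beyond the thinned values given. The header of the P1 file names a later pipeline version than the others, with the exclusion of intronic reads switched off, and calls the library P0, so P4 is the early age of each comparison between ages. In the P1 library 4 Y-linked genes reached 120.4 CPM (UMIs scaled to a common total per library) over all cells, against 0.126 to 0.190 CPM in the other libraries, which goes against the sex that the methods give for the P1 mice. P4, P10 and adult shared 319 to 368 cell indices pairwise, P1 shared 12 to 20 with each of them, and 2, 6, 3 and 3 members had an index found in another library. Scrublet, a doublet caller, marked 12, 20, 7 and 2 members as possible doublets, that is 8.82%, 8.403%, 4.29% and 5.71% of members, against 5.11%, 9.41%, 6.91% and 7.82% of all cells, and these were kept.

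Members made up 1.496%, 1.71%, 1.77% and 0.486% of glutamatergic cells, with exact binomial 95% intervals of 1.26 to 1.77%, 1.499 to 1.94%, 1.51 to 2.05% and 0.339 to 0.675%. Intervals here cover counting error only, and say nothing of the spread between mice. Those of levels and folds count the UMIs of 1 cell as independent, so they leave out the spread between cells too. The adult share was below the others and outside their intervals. When each cell was thinned to 3000 UMIs before the rule was applied, the shares were 0.458%, 0.624%, 0.605% and 0.233%, which rest on 40, 83, 47 and 12 cells, of 8738, 13301, 7773 and 5150 cells that still met the glutamatergic conditions. Of the glutamatergic cells, 0, 232, 164 and 217 had too few UMIs to enter. The adult share was the lowest on this scale too, and its interval of 0.120 to 0.407% overlapped that of P1 (0.327 to 0.623%).

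Ctgf and Nxph4 moved in opposite ways between P4 and adult over all glutamatergic cells, which numbered 9093, 13934, 9234 and 7205. Cells with a Ctgf UMI numbered 366, 800, 1177 and 1218 of these, and cells with a Nxph4 UMI 1104, 1226, 676 and 95. Both were found in 175, 299, 240 and 45 cells, that is in 47.8%, 37.4%, 20.4% and 3.69% of Ctgf cells and in 15.9%, 24.4%, 35.5% and 47.4% of Nxph4 cells. In adult, Ctgf was thus detected in many cells without Nxph4, while nearly 1 in 2 Nxph4 cells also had Ctgf. Members held 456, 608, 909 and 1680.5 CPM of Ctgf, on a scale that leaves mitochondrial and ribosomal protein genes out of the total. L6 CT cells held 2.26, 5.896, 11.6 and 56.6 CPM and L5 NP cells 3.41, 21.3, 99.4 and 97.2 CPM of it. Nxph4 stood at 340.3, 439, 314 and 441 CPM in members and went from 32.1 CPM at P4 to 1.48 CPM in adult in L6 CT cells. In cells thinned to 3000 UMIs, Ctgf was seen in 55.1%, 67.9%, 76.1% and 88.6% of members and in 0%, 0%, 1.27% and 2.57% of microglia-like cells (at least 10 UMIs of C1qa, C1qb, C1qc and Csf1r per 10000), which should lack it, and all members have it unthinned by the rule. Microglia-like cells numbered 35, 80, 815 and 1399 and had median depths of 25210, 8467, 4688 and 4520 UMIs before thinning.

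The cells on each side of the threshold were as follows. The 24, 40, 35 and 7 members with under 3 UMIs of Ctgf plus Nxph4 per 10000 held 14.5, 2.33, 1.09 and 10.04 CPM of Lpar1, a lysophosphatidic acid receptor of the subplate. The 20, 44, 52 and 8 cells with both genes that fell just outside, at 1 to 2 UMIs per 10000, held 1.78, 0, 0 and 0 CPM. Clic5 stood at 122, 71.2, 69.9 and 30.1 CPM inside and 42.6, 50.04, 49.04 and 6.79 CPM outside. Trhr was at 76.4, 65.4, 91.7 and 20.1 CPM inside and 40.9, 67.9, 98.1 and 20.4 CPM outside. Tmem163 was at 45.5, 112, 110.3 and 0 CPM inside and 23.1, 47.7, 69.8 and 20.4 CPM outside. Drd1 was at 104, 68.9, 53.5 and 121 CPM inside and 67.5, 48.9, 39.1 and 40.7 CPM outside. Cplx3 was at 8.26, 19.8, 21.8 and 0 CPM inside and 0, 9.53, 4.99 and 0 CPM outside. No intervals were made for these values. The adult ones rest on 7 and 8 cells, so their directions are not read. Foxp2, the corticothalamic transcription factor, stood at 71.3, 92.2, 97.2 and 281 CPM inside and 188, 94.1, 139.6 and 163 CPM outside.

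**Figure D1:**
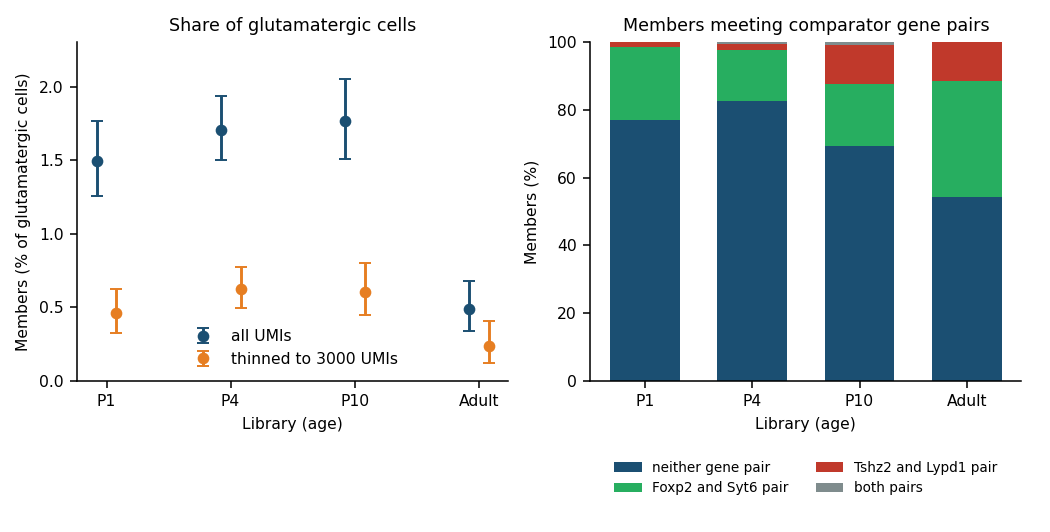
Left, members as a percentage of glutamatergic cells (vertical axis) in each library (horizontal axis), from all UMIs and after thinning to 3000 UMIs, with exact binomial 95% intervals as bars. Right, the percentage of members in each library that also met the gene pair of L6 CT cells, of L5 NP cells, both or neither. The share of glutamatergic cells is lowest in adult in both series, at 0.486% and 0.233%, and members that met neither pair make up 54.3% there against 82.8% at P4.

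Levels of markers that the rule did not use follow, from lists chosen with earlier results of these data known. Clic5, an intracellular chloride channel family protein, stood at 147, 126, 111 and 135 CPM in members, 13.9, 10.05, 6.58 and 6.098 CPM in L6 CT cells and 81.2, 39.1, 51.9 and 46.1 CPM in L5 NP cells. Members were highest in every library, by 10.6-fold (95% interval 9.51 to 11.8) over L6 CT cells at P1 and by 22.1-fold (95% interval 16.3 to 29.9) in adult. Trhr, the receptor of thyrotropin-releasing hormone, was at 49.9, 43.1, 48.7 and 49.1 CPM in members and 13.6, 14.4, 7.97 and 15.1 CPM in L6 CT cells. L5 NP cells held more of it, at 59.5, 115, 164 and 168 CPM, so Trhr set members apart from L6 CT cells and not from L5 NP cells. Lpar1 was at 45.3, 46.4, 32.9 and 52.3 CPM in members, against 0.283 to 6.93 CPM in L6 CT cells and 0.634 to 6.06 CPM in L5 NP cells. Nr4a2 (Nurr1), a nuclear receptor of subplate and claustrum neurons, was at 83.6, 62.3, 105 and 69.8 CPM in members, 12.6, 8.92, 9.01 and 16.3 CPM in L6 CT cells and 5.12, 0.908, 1.59 and 3.92 CPM in L5 NP cells. Neither gene overlapped between members and comparators in any library, intervals included.

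Of 23 layer 6b and subplate markers outside the rule, 17 passed the filter on level (a mean of 20 CPM over both groups and the 4 libraries) beside L6 CT cells. A gene was called where its difference on the log2(CPM + 10) scale, which understates the change of low genes, was at least 1 in the same direction in every library. By this rule 8 of 17 were higher in members than in L6 CT cells (Clic5, Trhr, Cplx3, Lpar1, Nr4a2, Tmem163, Kcnab1 and Svil), 0 were lower, and their median difference was 1.26 (all genes tested, -0.03). Over all 7394 genes tested, 41 were higher, which is 0.555% of them. Beside L5 NP cells 5 of 17 were higher (Cplx3, Drd1, Lpar1, Nr4a2 and Tmem163) and 0 lower, with a median of 1.15 (all genes tested, -0.05) and a background of 0.55% over 7458 genes. The list was chosen with earlier results of these data known, so these counts describe the members and are no independent check of their identity. Markers shared with L6 CT cells did not stand out: Tbr1 was at 408, 310.1, 257 and 317 CPM in members and 549.9, 505, 457 and 454 CPM in L6 CT cells, and Sox5 at 197, 102, 65.8 and 60.2 and 445, 192, 117 and 73.8 CPM. P2ry12, a gene of microglia that is also named for the subplate, was at 0.1702, 0, 2.74 and 12.7 CPM in members and no higher than in L6 CT cells at 1.03, 4.43, 12.2 and 17.6 CPM. Kynu, Hsd17b2 and Col8a1 stayed under 8 CPM in members in all 4 libraries.

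**Figure D2:**
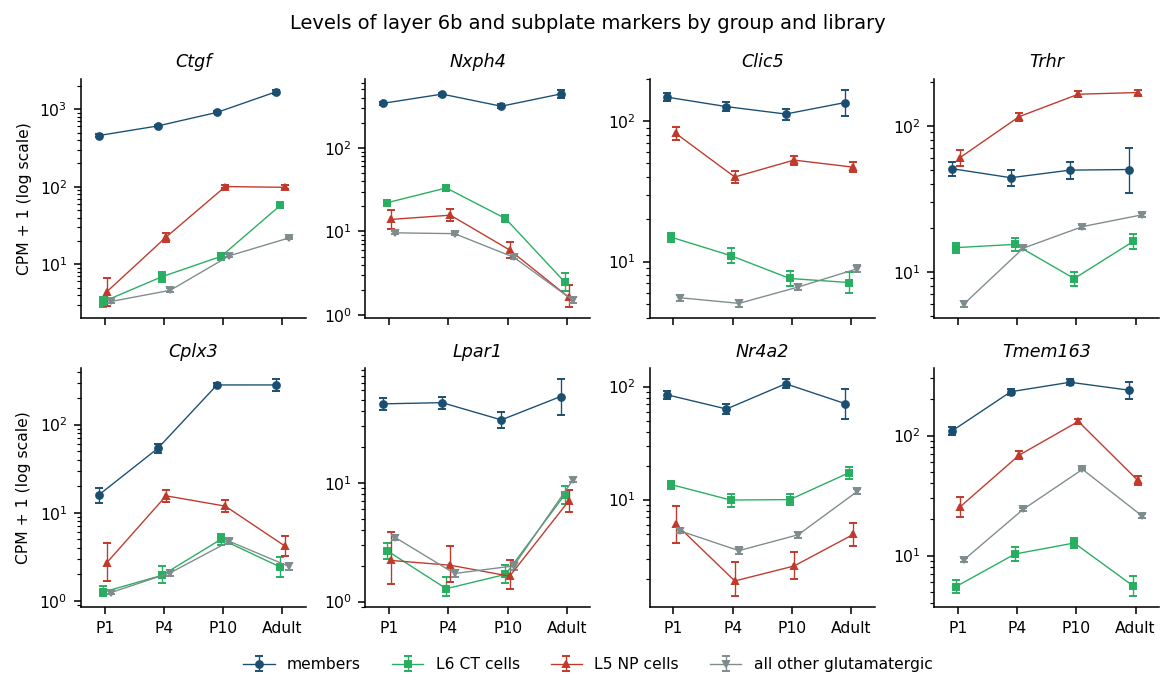
Levels of 8 markers (CPM + 1, log axis) by library in members, L6 CT cells, L5 NP cells and all other glutamatergic cells, with 95% Poisson intervals as bars. Ctgf and Nxph4 belong to the rule. Clic5, Cplx3, Lpar1, Nr4a2 and Tmem163 are highest in members in every library, while Trhr is highest in L5 NP cells, at 168 CPM in adult against 49.1 CPM in members.

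Between P4 and adult, 2 of 18 of these markers rose in members (Cplx3 and Moxd1) and 1 fell (Abca8a), by a log2 difference of at least 1, beside 9.41% of 7215 genes that rose and 10.9% that fell. Cplx3, a complexin that regulates vesicle fusion, was at 14.8, 52.6, 281 and 281 CPM in members, at 0.251, 0.943, 4.001 and 1.41 CPM in L6 CT cells and at 1.71, 14.5, 10.9 and 3.21 CPM in L5 NP cells. Its level in members was 5.33-fold higher in adult than at P4 (95% interval 4.41 to 6.44), and the rise lay between P4 and P10. It was detected in 19.1%, 20.2%, 49.1% and 40% of members, and in 3.68%, 8.86%, 26.4% and 22.9% after thinning, against 0%, 0%, 0.282% and 0.234% of microglia-like cells. At P1 and P4 these were at most 35 and 80 cells, too few for 0% to set a low floor. Moxd1, a monooxygenase-like protein of the endoplasmic reticulum, went the same way, from 9.55 CPM at P4 to 34.7 CPM at P10 and 53.9 CPM in adult, and stayed under 3 CPM in both comparators. Ctgf, which the rule used, was at 608 CPM at P4 and 1680.5 CPM in adult. Lpar1, Nr4a2, Clic5, Trhr and Kcnab1 differed between adult and P4 by less than 1 on the log2 scale.

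Members differed in the comparator genes they also carried. Of 572 members, 434 (75.9%) met neither comparator pair, 109 (19.1%) also met the Foxp2 and Syt6 pair, 31 (5.42%) the Tshz2 and Lypd1 pair and 2 met both, a division chosen after values had been seen. Members with the Tshz2 and Lypd1 pair numbered 2, 5, 20 and 4 by library, and those with the Foxp2 and Syt6 pair 29, 37, 31 and 12. All members numbered 136, 238, 163 and 35. Glutamatergic cells that did not carry both Ctgf and Nxph4 numbered 8918, 13635, 8994 and 7160. Of these, 135, 622, 630 and 791 met the Tshz2 and Lypd1 pair and 1572, 1874, 1655 and 854 the Foxp2 and Syt6 pair. Whether the shares in members differ from these was not tested. At P10, Etv1, a transcription factor of layer 5, reached 1731 CPM in members with the Tshz2 and Lypd1 pair and 38.2 CPM in those with neither. Trhr stood at 187 and 27.2 CPM in the same groups, and Slc17a6, the vesicular glutamate transporter VGLUT2, at 537 and 84.1 CPM. Cplx3 ran the other way, at 11.6 CPM with the Tshz2 and Lypd1 pair, 54.7 CPM with the Foxp2 and Syt6 pair and 380.3 CPM with neither, and Lpar1 was at 2.31, 2.28 and 45.6 CPM. At P10, members with a comparator pair carried less of Cplx3 and Lpar1 and, for the Tshz2 and Lypd1 pair, more Etv1, Trhr and Slc17a6. Lpar1 was also lower with a pair at P1 (0, 17.9 and 53.4 CPM, in the same order), P4 (26.5, 15.6 and 51.4 CPM) and adult (51.1, 23.99 and 69.7 CPM), values that rest on 0 to 22 UMIs in each group with a pair. Cplx3 did not follow in every library. It was at 146, 44.2 and 52.4 CPM at P4, and a UMI of it was found in 6 of 29 members with the Foxp2 and Syt6 pair and 20 of 105 with neither at P1, and in 2 of 4 with the Tshz2 and Lypd1 pair and 10 of 19 with neither in adult. These cells were kept in the counts, and the counts without them are given in the closing section.

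**Figure D3:**
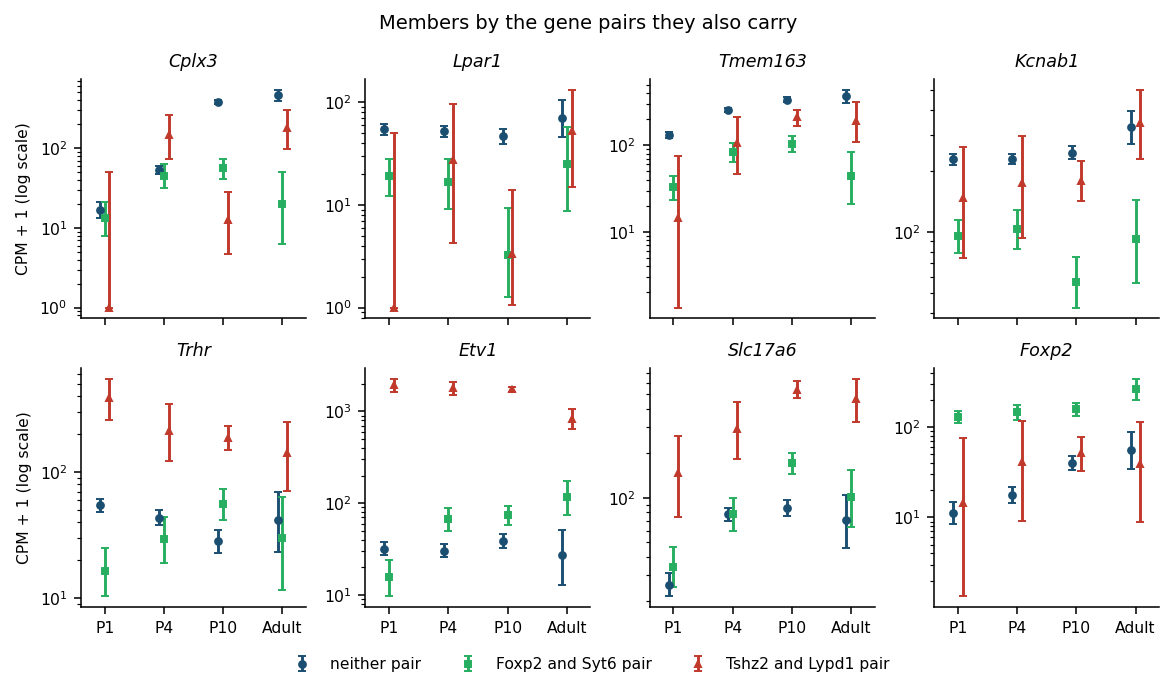
Levels of 8 genes (CPM + 1, log axis) by library in members that met neither comparator gene pair, the Foxp2 and Syt6 pair or the Tshz2 and Lypd1 pair, with 95% Poisson intervals as bars. The 2 P1 members with the Tshz2 and Lypd1 pair had no UMI of Cplx3 or Lpar1, and their points lie at 1. At P10, Cplx3 and Lpar1 are highest without a pair, and Trhr, Etv1 and Slc17a6 with the Tshz2 and Lypd1 pair.

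Members with and without a Cplx3 UMI were compared within each library. Members with a Cplx3 UMI numbered 26, 48, 80 and 14, which is 19.1%, 20.2%, 49.1% and 40.0% of members. They were deeper, with a median of 33174.5 UMIs against 26829 UMIs in the other 83 members at P10. On the CPM scale at P10, Lpar1 stood at 55.7 against 6.85 CPM (with against without Cplx3, 8.13-fold, 95% interval 4.67 to 15.3), Moxd1 at 54.4 against 12.2 CPM, and Igfbp5, a secreted binding protein of insulin-like growth factors, at 499 against 126 CPM. Among receptors, Htr2a, the serotonin 2A receptor, stood at 92.97 against 13.2 CPM and Adra2a, the alpha-2A adrenergic receptor, at 233 against 54.8 CPM. Hcrtr2, the orexin 2 receptor, ran the other way, at 23.6 against 38.7 CPM (0.609-fold, 95% interval 0.424 to 0.8705). Members without Cplx3 held more of Tshz2 (1.29 against 187 CPM), Trhr (15.9 against 86.2 CPM), Rprm (18.4 against 87.1 CPM) and Crym (54.8 against 207 CPM). This division overlapped that by comparator pair. At P10 a Cplx3 UMI was found in 73 of 113 members with neither pair. With the Foxp2 and Syt6 pair it was found in 6 of 31, and with the Tshz2 and Lypd1 pair in 1 of 20. The rule genes Ctgf (1278 against 487 CPM) and Nxph4 (447 against 163 CPM) were also higher with Cplx3. Whether the divisions are separate was not tested. In adult, where 14 members had Cplx3 and 21 did not, Lpar1 (91.9 against 12.7 CPM), Igfbp5 (998 against 235 CPM) and Adra2a (149 against 15.9 CPM) were again higher with Cplx3, and Rprm (69.7 against 222 CPM) and Crym (44.4 against 174 CPM) lower. Tshz2 (57.1 against 69.8 CPM, 0.818-fold, 95% interval 0.413 to 1.597) and Trhr (50.7 against 47.6 CPM) did not follow in adult, nor did Hcrtr2 (0.999-fold, 95% interval 0.427 to 2.34). Vwc2l was at 0.661-fold (95% interval 0.479 to 0.909) at P10 and at 2.67-fold (95% interval 1.196 to 6.52) in adult. Lypd1 stood at 83.97 against 431 CPM at P10 and at 409 against 155 CPM in adult. Few cells can set these adult values, and 2 of the 4 adult members with the Tshz2 and Lypd1 pair had Cplx3. The spread between cells was not tested, so no reversal with age is read from them. At P1, Hcrtr2 was at 0.953-fold, 95% interval 0.686 to 1.303, Lpar1 stood at 50.2 against 43.8 CPM (1.15-fold, 95% interval 0.856 to 1.52), Rprm at 40.6 against 43.1 CPM (0.941-fold, 95% interval 0.684 to 1.27) and Trhr at 42.8 against 51.98 CPM (0.823-fold, 95% interval 0.607 to 1.101). These P1 intervals all held 1, so no difference of these 4 genes was detectable at this depth, while Htr2a stood at 113 against 54.9 CPM (2.06-fold, 95% interval 1.67 to 2.53). At P4, Lpar1 stood at 81.8 against 35.9 CPM (2.28-fold, 95% interval 1.77 to 2.93) and Tshz2 at 16.1 against 20.2 CPM (0.794-fold, 95% interval 0.469 to 1.29). Members with Cplx3 at P4 also held less of Hcrtr2 (0.536-fold, 95% interval 0.281 to 0.946), Trhr (0.674-fold, 95% interval 0.4701 to 0.946) and Rprm (0.459-fold, 95% interval 0.315 to 0.652). The change of these ratios between ages was not tested.

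Against L6 CT cells, which lie in the layer above, members were higher in 41 of 7394 genes and lower in 24 (0.325%) in all 4 libraries. Without genes of the rules, Kcnab1 led the higher genes by its smallest difference (3.25 on the log2 scale). This beta subunit of potassium channels was at 198, 210.4, 202 and 252 CPM in members and 11.9, 10.2, 9.29 and 16.2 CPM in L6 CT cells. Tmem163, a zinc transporter of synaptic vesicles, followed at 108, 231, 277 and 238 CPM against 4.49, 9.29, 11.7 and 4.56 CPM. Clic5, given above, was next (2.72). Crtac1, an extracellular matrix protein, was at 182, 221, 290.2 and 147 CPM against 22.7, 26.9, 33.4 and 16.5 CPM, and Igfbp5 at 171, 365, 325 and 617 CPM against 5.17, 43.4, 48.4 and 92.3 CPM. Tpbg, Adgrg6 (an adhesion G protein-coupled receptor), Col19a1 (a collagen), Olfm3 (an olfactomedin) and Pcsk5 (a proprotein convertase) were among the 12 named here, with smallest differences of 2.28 down to 1.95. Adgrg6 was nearly limited to members among the 3 groups, at 36.9, 47.4, 37.7 and 41.2 CPM against 0.221 to 1.605 CPM in L6 CT cells and 0.476 to 6.77 CPM in L5 NP cells. Lpar1 and Adra2a completed the 12, and in adult the member with the most UMIs of each held 21.2% and 15.4% of them.

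Rprm, a p53-induced cell cycle gene in use as a layer 6 marker, was the lowest in members relative to L6 CT cells, at 42.5, 52.6, 50.5 and 146 CPM against 352, 435, 889 and 703 CPM. Transcription factors followed. Pou3f3 was at 53.6, 33.2, 19.4 and 14.3 CPM against 303, 153, 85.1 and 76.8 CPM, Meis2 at 106, 83.3, 58.5 and 85.6 CPM against 559, 411, 303 and 284 CPM, and Tcf4 at 289, 177, 166 and 160.1 CPM against 1159, 816, 650.1 and 487 CPM. Nefm (a neurofilament subunit), Dkk3 (a secreted Dickkopf protein), Ephb1 (an ephrin receptor) and Kit (the receptor of stem cell factor) made up the 8 named lower genes, with smallest differences from -1.53 to -1.37. In adult members 1 cell held 38.9%, 42.9% and 46.7% of the UMIs of Meis2, Nefm and Kit. Of the corticothalamic markers outside the rules 2 of 7 were lower (Crym and Rprm) and 0 higher, beside 0.325% and 0.555% of 7394 genes. Tle4 was at 882, 629.5, 519 and 439 CPM in members and 969.8, 732, 613 and 429.7 CPM in L6 CT cells. With only 3 libraries to pass, 54 genes were lower without the adult library and 31 without the P1 library. All 24 were among them by construction, since a gene past the limit in 4 libraries is past it in any 3. Among alternatives that used all 4 libraries, the count ran from 8 with a looser member threshold to 49 with a pseudocount of 1 CPM.

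**Figure D4:**
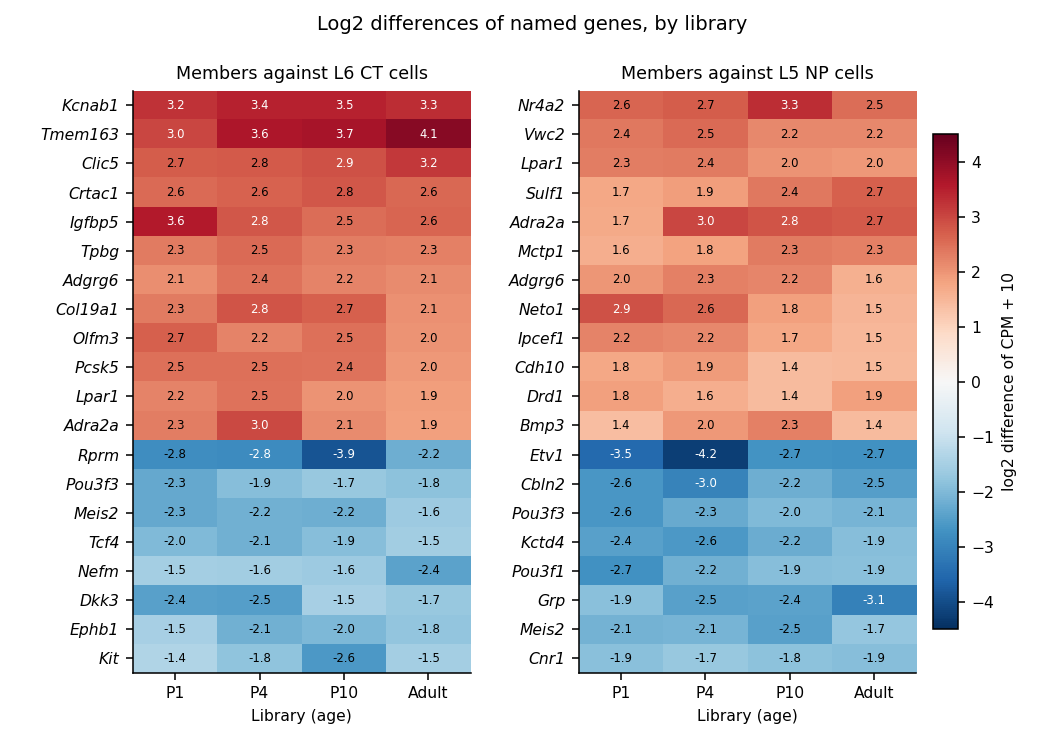
Differences of log2(CPM + 10) between members and L6 CT cells (left) and L5 NP cells (right) for the named genes (rows) in each library (columns), with red for higher and blue for lower in members and the value in each field. The genes were chosen for 1 direction in the 4 libraries, and the values run from 4.1 for Tmem163 in adult to -4.2 for Etv1 at P4.

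Against L5 NP cells, members were higher in 41 of 7458 genes and lower in 63 (0.845%). Under TMM scaling this split was 52 higher and 49 lower, so the surplus of lower genes did not hold. Without the adult library 64 were higher and 94 lower. Nr4a2, given above, led the higher genes (smallest difference 2.52), followed by Vwc2, a secreted inhibitor of bone morphogenetic proteins, at 101, 82.5, 58.7 and 42.8 CPM against 11.2, 5.79, 5.47 and 1.69 CPM. Sulf1, an extracellular sulfatase, was at 55.8, 45.8, 72.7 and 116 CPM against 9.75, 4.995, 5.95 and 9.71 CPM, and Mctp1, a calcium-binding membrane protein, at 216, 209, 305 and 393 CPM against 63.4, 52.2, 52.8 and 72.7 CPM. Neto1, an auxiliary subunit of kainate receptors, was at 498, 350.2, 259.8 and 179 CPM against 59.5, 50.6, 65.2 and 55.3 CPM. Of these, Vwc2 and Sulf1 act outside the cell and Neto1 at the synapse. Drd1, Bmp3, Cdh10, Ipcef1, Lpar1, Adra2a and Adgrg6 were the other named higher genes. Etv1 was lowest, at 51.9, 53.5, 201 and 155 CPM in members against 681, 1187, 1349 and 1087 CPM, and at P10 the 20 members with the Tshz2 and Lypd1 pair held 748 UMIs of it, against 118 UMIs in the 113 members with neither pair. Cbln2, a secreted organizer of synapses, was at 12.9, 40.3, 110.4 and 63.4 CPM against 130.4, 392.03, 548 and 402 CPM, and Cnr1, the cannabinoid receptor, at 66.7, 41.5, 25.1 and 30.1 CPM against 274, 157, 116 and 143 CPM. Pou3f3, Kctd4, Pou3f1, Grp and Meis2 were the other named lower genes. In adult members 1 cell held 75% of the 8 UMIs of Grp.

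Receptors were taken by family, to be read beside the 0.555% of 7394 genes called higher and 0.325% called lower than in L6 CT cells, and the 0.55% of 7458 genes called higher and 0.845% called lower than in L5 NP cells. The median difference over all genes was -0.03 and -0.05. Of the monoamine and acetylcholine receptors, 2 of 10 tested were higher in members than in L6 CT cells (Htr2a and Adra2a) and 0 lower, and the median difference was 0.84. Htr2a was at 68.2, 58.5, 55.7 and 72.9 CPM in members and 10.2, 9.76, 5.48 and 6.804 CPM in L6 CT cells, and Adra2a at 61.6, 185, 149.7 and 82.4 CPM and 4.65, 14.8, 26.5 and 15.5 CPM. Beside L5 NP cells 4 of 10 were higher (Drd1, Adra1b, Adra2a and Chrm3), with a median of 1.26, and Htr2c, the serotonin 2C receptor, was lower, at 0.681, 2.78, 45.5 and 45.98 CPM against 18.04, 88.8, 401 and 409.9 CPM. Drd1, the dopamine D1 receptor, was at 97.5, 85.9, 87.3 and 116 CPM in members, 60.6, 73.3, 51 and 37.5 CPM in L6 CT cells and 19.99, 21.2, 26.6 and 24.7 CPM in L5 NP cells. It separated members from L5 NP cells at every age, and from L6 CT cells past the limit in adult, by 3.09-fold (95% interval 2.39 to 3.94). Chrna4, the alpha-4 subunit of nicotinic receptors, was at 157, 178, 180.5 and 195 CPM in members, against fewer in L6 CT cells at P1 and P4 (28.95 and 80.4 CPM) and a nearer level in adult (146 CPM).

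Of 30 neuropeptide receptors only 9 passed the filter beside L6 CT cells, and 1 of them, Trhr, was higher in members. Hcrtr2, the orexin 2 receptor, was at 39.8, 17.9, 30.6 and 41.2 CPM in members, 13.2, 4.67, 3.24 and 9.44 CPM in L6 CT cells and 15.6, 9.196, 10.2 and 13.3 CPM in L5 NP cells. Members had the highest level of these groups in every library, but the difference was under 1 on the log2 scale at P4 against L6 CT cells and at P1 and P4 against L5 NP cells, so it was not called. Its partner Hcrtr1 was at 1.02, 4.86, 18.96 and 11.1 CPM, against 0.201, 1.89, 24.03 and 12.7 CPM in L6 CT cells. Of the orexin receptors, Hcrtr2 was thus the one that lay higher in members throughout. Cckbr, the cholecystokinin B receptor, was at 16.5, 48.4, 175 and 187 CPM in members against 0.854, 4.62, 83.4 and 121 CPM in L6 CT cells and 0.244, 3.29, 28.8 and 55.2 CPM in L5 NP cells, and Cckbr and Ntsr1 were the 2 of 8 called higher beside L5 NP cells. Oprm1, the mu opioid receptor, was at 29.4, 4.69, 4.11 and 9.51 CPM in members and 2.54, 0.708, 1.51 and 2.696 CPM in L6 CT cells, under the filter. Of 8 neuropeptides tested beside L6 CT cells 0 were called higher in members and 1 lower (Grp), beside 0.555% and 0.325% of all genes. Beside L5 NP cells 0 of 9 were higher and 1 lower (Grp), beside 0.55% and 0.845%. Trh, the ligand of Trhr, was thus not called, at 32.2, 128, 121 and 68.2 CPM in members and 3.54, 23.9, 70.2 and 2.503 CPM in L6 CT cells. Beside the other secreted partners, Nxph3, the neurexophilin related to Nxph4, was at 302, 464, 505 and 411 CPM against 128, 218, 230.3 and 173 CPM in L6 CT cells and was called higher, 1 of 4 neurexophilins and neurexins tested. Of the CCN family only Nov (Ccn3) passed the filter beside Ctgf, at 11.9, 143, 432 and 190.2 CPM in members, 6.15, 51.7, 182 and 113 CPM in L6 CT cells and 18.04, 142, 308 and 166 CPM in L5 NP cells.

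Gene lists of other functions were counted beside the same shares of all genes, 0.555% higher and 0.325% lower than in L6 CT cells, and 0.55% and 0.845% than in L5 NP cells. Of 24 layer and subplate transcription factors tested, Nr4a2 was higher and Otx1 lower in members than in L6 CT cells. Otx1 was at 23.3, 15.6, 14.2 and 6.34 CPM against 105, 92.2, 54.4 and 27.3 CPM. The median difference of the list was -0.54, and Bcl11b (Ctip2) lay at 293, 131, 128 and 165 CPM against 657, 296, 223 and 229.99 CPM. Beside L5 NP cells 1 of 25 was higher (Nr4a2) and 6 were lower (Fezf2, Foxp1, Pou3f1, Pou3f2, Etv1 and Lmo4). Fezf2, a determinant of subcerebral projection neurons, was at 179, 166, 247 and 195 CPM in members and 576, 681, 642 and 401 CPM in L5 NP cells. Of guidance and cadherin genes 1 of 40 was higher than in L6 CT cells (Cdh10) and 2 lower (Ephb1 and Cdh9), and of matrix and secreted genes 2 of 17 were higher (Thbs2 and Igfbp5) and 0 lower, with medians of 0.10 and -0.24 for these 2 lists. Thbs2, a thrombospondin, was at 23.1, 47.6, 34.04 and 44.4 CPM against 1.41, 2.97, 6.87 and 10.1 CPM.

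The vesicle and synapse genes held 1 of 18 called higher than in L6 CT cells (Cplx3) and 2 lower (Cplx2 and Nrgn), beside 0.555% and 0.325% of all genes, and their median difference was 0.29. Cplx2 was at 106, 133, 247 and 268 CPM in members and 295, 388, 645 and 725 CPM in L6 CT cells, the reverse of Cplx3. Nrgn (neurogranin), a postsynaptic calmodulin-binding protein, was at 31.99, 308, 871 and 1062 CPM against 158, 765, 2799 and 4566 CPM in L6 CT cells and 191, 1344, 2879 and 3208 CPM in L5 NP cells. Slc17a7, the vesicular glutamate transporter VGLUT1, was at 178, 600.03, 2166 and 3159.6 CPM in members against 54.1, 167, 823 and 2262 CPM, 3.58-fold (95% interval 3.42 to 3.76) at P4 and 1.397-fold (95% interval 1.33 to 1.46) in adult, so the gap narrowed with age.

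Between P4 and adult, 679 of 7215 genes were higher in adult members (9.41%) and 788 lower (10.9%), with a median over all genes of -0.10. Under TMM scaling 760 were higher and 701 lower, so the surplus of lower genes turned. Markers of the comparators moved between the same ages. Of 9 corticothalamic markers 3 rose in members (Foxp2, Crym and Rprm) and 1 fell (Sla), and of 6 near-projecting markers 3 rose (Tshz2, Lypd1 and Vwc2l) and 0 fell. Members with the Foxp2 and Syt6 pair made up 15.5% of members at P4 and 34.3% in adult, and those with the Tshz2 and Lypd1 pair 2.101% and 11.4%. Glutamatergic cells that did not carry both Ctgf and Nxph4 numbered 13635 at P4 and 7160 in adult. The Tshz2 and Lypd1 pair was met by 622 and 791 of these, so its share rose there too. The Foxp2 and Syt6 pair was met by 1874 and 854. With members that met a pair left out, 757 genes were higher and 1005 lower in adult. These held 594 of the 679 and 707 of the 788. Beyond these counts the part of such members in the changes between ages was not tested. Of 16 immature neuron and growth genes 16 fell, with a median of -2.72. Tubb2b, a beta-tubulin of growing neurons, was at 4153, 3603, 1003 and 57.1 CPM, Marcksl1 at 1624, 1496, 945 and 23.8 CPM and Dcx (doublecortin) at 1339, 980.3, 196 and 66.6 CPM. Dpysl3, Nrep, Cd24a, Cxadr, Vcan and Tes were among the other named falls. Of 10 cell death genes 5 fell in members, among them Bax, Bak1, Bbc3 and Ngfr, and 1 rose (Hrk). Of the same 10 genes 5 fell and 1 rose in L6 CT cells, and 4 fell and 1 rose in L5 NP cells. All 16 immature genes also fell in L6 CT and L5 NP cells, with medians of -3.42 and -3.37. Ngfr, the p75 neurotrophin receptor, was at 6.64, 40.8, 29.02 and 4.76 CPM in members against 4.09, 7.59, 4.19 and 0.193 CPM in L6 CT cells. Tes had 640 UMIs at P4 and 0 in adult, where a floor of 3 UMIs makes it at least 23.4-fold lower, and Vcan had 1 UMI in adult.

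Rises were counted by list, to be read beside the 9.41% of all genes that rose. Of vesicle and synapse genes 8 of 18 rose and 0 fell (Slc17a7, Cplx3, Snap25, Syt1, Syn2, Sv2b, Camk2a and Nrgn), and in L6 CT and L5 NP cells 10 of 18 rose each. Among glutamate receptors 8 of 20 rose, Gria1, Gria2, Gria3, Grin1 and Grin2a among them, and 2 fell (Grin2d and Grin3a). Grin2a, the mature NMDA receptor subunit, was at 10.2, 11.1, 61.2 and 151 CPM, and Grin3a at 44.9, 74.1, 98.02 and 25.4 CPM. Of GABA receptors and chloride transporters 5 of 14 rose and 0 fell, among them Slc12a5 (KCC2), the chloride exporter, at 82.02, 134, 163 and 320.2 CPM. Of monoamine and acetylcholine receptors 5 of 10 rose (Htr2c, Adra1b, Chrm1, Chrm2 and Chrm3) and Adra2a fell. In L6 CT and L5 NP cells 5 and 6 of the glutamate receptors rose, and 3 and 2 fell. Of the GABA list 6 and 5 rose there, and of the monoamine and acetylcholine receptors 3 and 6, with 0 falls in both lists. Ano3, Slc24a2, Cntnap1, Sorl1, Hlf, Efhd2, Rasgrp1, Scn2b and Ptgds were among the named rises in members. Efhd2, a calcium-binding protein, was at 23.7, 56.4, 386 and 813 CPM and Cntnap1, a paranodal axon protein, at 0.3403, 3.65, 60.3 and 184 CPM. Ptgds, a prostaglandin D synthase of oligodendrocytes, rested on 1 adult cell, which held 88.6% of its UMIs. The summed oligodendrocyte markers were at 34.5, 54.9, 89.3 and 666 CPM in members and 75.8, 92.7, 114 and 610.1 CPM in L6 CT cells.

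The immature genes were followed step by step. From P4 to P10, 9 of the 16 fell past the limit in members (median -1.13), 4 in L6 CT cells (median -0.57) and 6 in L5 NP cells (median -0.77). Over the same step 1.59%, 1.62% and 1.19% of 7215 genes fell in these groups. From P10 to adult the counts were 12 (median -1.83), 15 (median -2.48) and 15 (median -2.37), beside 4.27%, 5.36% and 4.07% of all genes. The difference in course between the groups was not tested. At P10, 15 of 16 lay below the L6 CT level, 4 of them past the limit, with a median of -0.65, beside a background of 117 of 7394 genes lower at P10 (1.58%) and 141 higher (1.91%). The medians against L6 CT cells were 0.28, -0.16, -0.65 and 0.03 in the 4 libraries. Dcx at P10 was at 196 CPM in members and 391.71 CPM in L6 CT cells, and Cd24a at 89.3 and 719.9 CPM. In adult members stood at 66.6 and 11.1 CPM and L6 CT cells at 46.4 and 17.7 CPM.

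**Figure D5:**
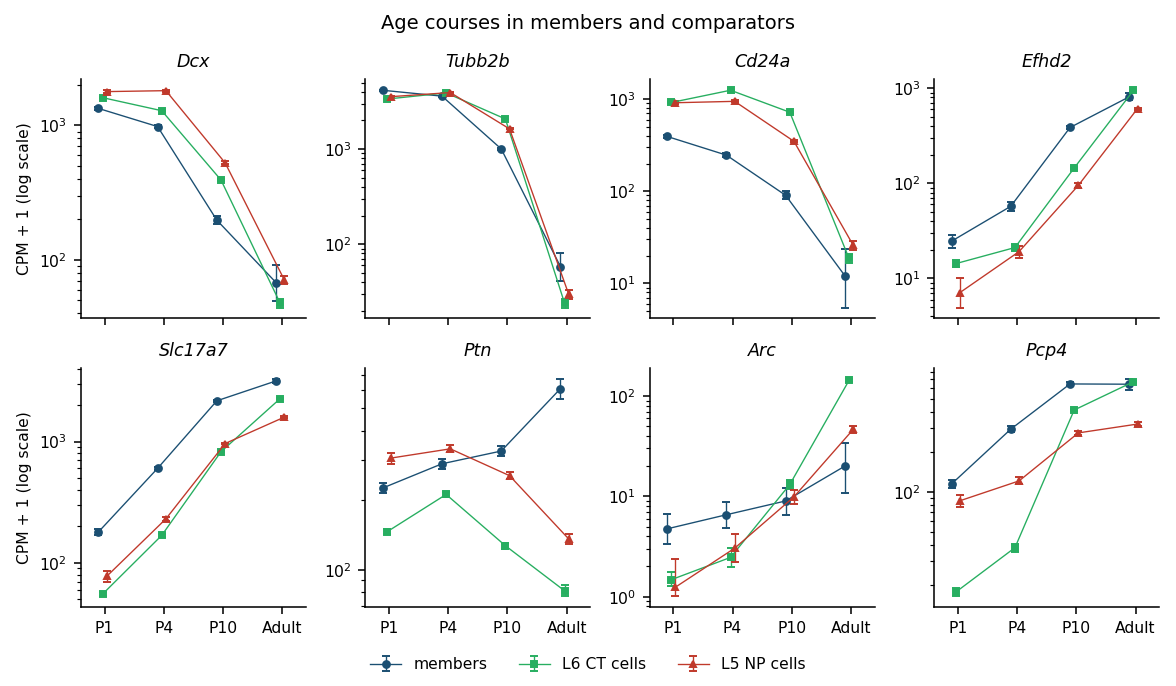
Levels of 8 genes (CPM + 1, log axis) by library in members, L6 CT cells and L5 NP cells, with 95% Poisson intervals as bars. Dcx, Tubb2b and Cd24a are lowest in members of the 3 groups at P10, Ptn is at 609 CPM in adult members and 80.04 CPM in adult L6 CT cells, and Arc is at 19.02 and 142 CPM.

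The change from P4 to adult differed by at least 1 on the log2 scale between members and L6 CT cells in 338 of 7394 genes, 179 in which members changed upward relative to L6 CT cells (2.42%) and 159 downward (2.15%). Under TMM scaling these were 163 and 197, so the balance of directions did not hold. Lancl3, a lanthionine synthetase-like protein, led the upward genes, at 51.7, 26.2, 26.5 and 84.02 CPM in members and 57.5, 34.1, 14.5 and 3.66 CPM in L6 CT cells. Ptn (pleiotrophin), a secreted growth factor, was at 225, 287, 326 and 609 CPM against 145, 211, 126 and 80.04 CPM. These 2 were the only genes of 7394 that rose past the limit in members and fell past it in L6 CT cells, and 0 did the reverse. Dner, a Notch ligand, was at 316, 464, 397 and 382 CPM in members and 161, 394, 263 and 46.3 CPM in L6 CT cells, a fall of the comparator and not of members past the limit. Tmem35a, a chaperone of nicotinic receptors, was at 182, 176, 205 and 358 CPM against 184, 159.96, 115 and 56.1 CPM, and Bhlhe22 at 47.3, 40.97, 22.8 and 61.8 CPM against 98.7, 69.6, 20.5 and 10.6 CPM. Slc17a8 in adult members rested on 14 UMIs, of which 1 cell held 50%. Kctd12 and Timp3 were also named, with both groups falling and L6 CT cells falling further.

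On the other side, Pcp4, a calmodulin-binding peptide, was at 114, 295, 647 and 644 CPM in members and 16.6, 36.98, 411 and 672 CPM in L6 CT cells, and Tuba4a at 35.2, 145, 310.05 and 306 CPM and 3.14, 26.3, 206 and 469 CPM. Members had the higher level of both at P1, P4 and P10. In adult, Tuba4a was higher in L6 CT cells, and Pcp4 stood at similar levels in the groups. Pappa2, a protease of insulin-like growth factor binding proteins, was at 131, 125, 70.1 and 9.51 CPM in members against 17.9, 11.6, 3.12 and 9.24 CPM, and 1 cell held 83.3% of its 6 adult UMIs. For 5 of 8 immediate early genes tested (Fos, Egr1, Egr3, Arc and Nr4a1) the change in members was lower by at least 1 than in L6 CT cells, and 0 were higher, with a list median of -1.23 (all genes tested, 0.02). Over all 7394 genes tested, 2.15% were lower and 2.42% higher by this measure. Arc was at 3.74, 5.56, 7.997 and 19.02 CPM in members and 0.477, 1.46, 12.1 and 142 CPM in L6 CT cells, and Egr1 at 84.2, 42.9, 134 and 168 CPM and 5.901, 59.95, 192 and 773 CPM. The methods name actinomycin D, which blocks transcription, in the solution in which PFC tissue was dissected. They do not name it for the slicing or the digestion, and its part in these levels was not tested. Nptx2 (neuronal pentraxin 2) and Tpd52l1 were the other named genes. Hba-a1 and Hbb-bs, hemoglobin genes of red blood cells, rested on 1 member at P4, which held 98.0% and 98.6% of their UMIs.

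The summed level of vessel markers was higher in members than in L6 CT cells in every library and higher than in L5 NP cells at P4 and P10. Of the single genes, 0 of 2 tested were called higher than in L6 CT cells in all 4 libraries and 0 of 3 higher than in L5 NP cells. The summed endothelial and mural list was at 126, 156, 439 and 182 CPM in members, 11.1, 49.4, 38.6 and 106 CPM in L6 CT cells and 159, 77.3, 145 and 393 CPM in L5 NP cells. All 8 of its genes had a UMI in members at P4 and P10, and 3, 6, 12 and 2 members held at least 3 UMIs and 5 per 10000 of the list. Rgs5, a mural cell gene, gave most of the sum at P10, at 242 CPM in members against 14.9 CPM in L6 CT cells, and Cldn5, an endothelial tight junction gene, was at 72.7 and 8.66 CPM. Sparc, a matrix gene that vessel cells also express, was at 31.5, 113, 207 and 23.8 CPM in members against 6.86, 33.96, 41.9 and 29.1 CPM in L6 CT cells, and Ctgf is itself a gene of vessel cells. The part of vessel RNA in these results was not tested beyond the following counts. With cells that carried markers of inhibitory neurons, glia or vessels left out of members (12, 17, 25 and 9 cells) and of the comparators, 40 of the 41 higher and 21 of the 24 lower genes beside L6 CT cells were still called. Beside L5 NP cells 39 of 41 and 56 of 63 were, and between P4 and adult 618 of 679 and 717 of 788. For the difference in change, 154 of 179 upward and 134 of 159 downward genes were still called. The microglia list was at 4.25, 0, 7.08 and 20.6 CPM in members, below L6 CT cells in each library, and Tmem119 was at 0 in all. The astrocyte list was at 46.6, 60.2, 116 and 171 CPM in members and 63.1, 124, 139 and 168 CPM in L6 CT cells, and the inhibitory list at 79.1, 116, 71.3 and 105 and 91.98, 118, 63.4 and 80.8 CPM. The median mitochondrial share was 7.80% in adult members and 5.20% in adult L6 CT cells, and its part in the adult values was not tested.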

How the data were processed

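Single cells of the PFC were captured on the BD Rhapsody platform and their 3' mRNA was sequenced. The authors made the deposited counts, 1 table of whole-number UMI counts per gene and cell for each of the 4 libraries, with the BD Rhapsody WTA Analysis Pipeline (version 1.11 for P1, 1.8 for the others, per the file headers) on GRCm38 (mm10) with GENCODE M19. From these counts, cells were filtered and grouped by the UMI conditions given above, and UMIs were summed per library and group. Levels are UMIs scaled to a common total (CPM) without mitochondrial and ribosomal protein genes. Differences were taken as log2(CPM + 10), for genes present in all 4 tables (23847) with a mean of at least 20 CPM, and called at 1 or more. The authors' cell types were not used here. Named genes were the 12 highest and 8 lowest called genes against each comparator by their smallest difference over the libraries, the 10 highest and 10 lowest of adult against P4, and the 8 highest and 8 lowest by the difference in change, without genes of the rules, mitochondrial, ribosomal protein and Y-linked genes, Xist and unnamed gene models. Other genes are members of fixed lists. Some genes that these rules name are not reported here. The members and lists were chosen with earlier results of these data known. Intervals are exact at 95% (Poisson, Clopper-Pearson, and conditional binomial for ratios). Doublets were marked with Scrublet (scanpy 1.11.5, expected rate 0.06) and kept, with their removal as an alternative. TMM factors came from edgeR 4.0.16, which was used for scaling alone. Python 3.11.15, NumPy 2.4.6, SciPy 1.17.1, pandas 2.3.3 and matplotlib 3.10.9 were used, and the calling step was tested on simulated data. Gene positions are those of RefSeq. Columns of per-cell values left out numbered 0.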

Additional observations from a re-analysis of the deposited data

Results flagged for a closer look

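Lancl3 and Ptn changed in opposite directions between P4 and adult. Lancl3 rose by 1.38 on the log2 scale in members and fell by 1.69 in L6 CT cells, a difference of 3.07. Ptn rose by 1.06 in members and fell by 1.30 in L6 CT cells, a difference of 2.35. With 1 library per age these differences were not tested. Y-linked genes, which no comparison uses, summed to 128 CPM in members of the P1 library and to 0, 0.228 and 0 CPM in members of the P4, P10 and adult libraries.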

How the results depend on the processing

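With 1 library per age, these values carry no replicate error, adult values rest on 35 members, and a gene at few UMIs can be set by 1 cell. No paired analysis was possible because the ages share 1 replicate number, of 1 library each, while members and comparators were compared within each library. The cause of the changes below was not tested. The member share, from the youngest library to the oldest, was 0.458%, 0.624%, 0.605% and 0.233% after thinning to 3000 UMIs, 1.08%, 1.26%, 1.19% and 0.319% with a threshold of 4 per 10000, and 1.92%, 2.15% and 2.60% at P1, P4 and P10 with the looser threshold of 1 UMI each. It was 2.04% at P4 without cells with markers of other classes. Genes lower than in L6 CT cells (24) numbered 40 after thinning, 41 with the threshold of 4, 8 with the looser threshold and 49 with a pseudocount of 1 CPM. Against L5 NP cells, higher genes (41) numbered 63 after thinning and 27 with the looser threshold, and lower genes (63) numbered 34 with the looser threshold and 97 with the pseudocount of 1. For the difference in change, upward genes (179) numbered 381 after thinning and 335 with the pseudocount of 1, and downward genes (159) numbered 405, 295, 251 with the threshold of 4 and 240 with no minimum level. Other alternatives were chosen after seeing the data. Without members that met a comparator pair the share was 1.15%, 1.41%, 1.22% and 0.264%, genes lower than in L6 CT cells numbered 46 and downward genes 307. In the same setting 53 genes were higher than in L6 CT cells, 54 higher and 82 lower than in L5 NP cells, and 256 upward. Between P4 and adult, 757 genes were higher and 1005 lower in it. Without the adult library, genes lower than in L6 CT cells numbered 54 and genes higher than in L5 NP cells 64. Without the cell with the most UMIs of each gene these were 38 lower than in L6 CT cells and 116 upward, and leaving that cell out lowers the smaller group more by its construction. The difference of Hba-a1 turned to 2.68 after thinning, 0.42 with the threshold of 4 and 0.24 without Scrublet-marked cells. That of Hbb-bs turned to 1.83, 0.11 and 0.21, and to 0.17 without cells with markers of other classes. All 76 named results kept their direction and call under TMM scaling, the pseudocount of 1 and the stricter cell filter, 69 did after thinning and 73 with the looser threshold. The named genes were the largest differences in these same data, so most lay far past the limit beforehand. A smaller pseudocount can only enlarge a ratio of levels, so it could alter the call of named genes in the difference in change only.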
